A study of Mus musculus with 96 samples.

Results

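XY- mice carry an X and a Y chromosome but have ovaries, because their Y chromosome (written Y-) lacks Sry, the gene that starts testis development, and they carry no Sry transgene. Bulk RNA sequencing of the prefrontal cortex (PFC) was compared between 7 unstressed and 6 stressed XY- mice, across every measured gene. These 13 libraries were chosen by their labels (PFC, genotype XY-) from 96 libraries in all. The wider series used the FCG mouse model, in which sex chromosomes and gonads are inherited separately, and took the PFC and the nucleus accumbens (NAc) of 48 animals. Besides XY- mice it held XX mice, which have ovaries, and XXSry and XY-Sry mice, which have testes because of an Sry transgene. Stressed animals went through subchronic variable stress, here 3 restraint sessions of 1 h each within 6 days, on alternating days, and controls were left unstressed. All 13 animals were labelled XY-, and the groups differed by label in stress and also in their cohorts, which are given below. RNA came from tissue punches, each of which holds many cell types. The sources used here do not give the age of the mice, their source colony, the transgene's promoter or the time from the last session to tissue collection.

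Restraint makes the adrenal gland release glucocorticoids, which reach the brain, bind the glucocorticoid receptor (Nr3c1) in neurons, glia and vessel cells, and raise transcription of target genes such as Fkbp5, Sgk1 and Tsc22d3. Neuronal activity in the first minutes to hours after a stressor is known to raise immediate early genes such as Fos. Prefrontal pyramidal neurons are known to be sensitive to repeated stress, and glia, vessels and innate immune genes have also been studied as responders. Interferon-induced genes are antiviral genes that factors such as Stat2 and Irf9 switch on through a short promoter element.

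Deposited counts per library averaged 83.5 M in controls (SD 6.18, range 76.1 to 95.3, n = 7) and 83.1 M in stressed animals (SD 6.18, range 76.4 to 90.4, n = 6). Levels are given as CPM, counts scaled to the depth of each library with TMM factors, and libraries are named by treatment and animal number. The animals came from 3 cohorts. Cohort 1 held controls 5, 6 and 13 and stressed 14, 15 and 31. Cohort 2 held controls 36 and 44 and no stressed XY- animal. Cohort 3 held controls 16 and 19 and stressed 26, 32 and 41. The title of control 19 carries the mark NT, whose meaning is not known here. The Y-linked gene Kdm5d lay between 34.2 and 38.99 CPM in all 13 libraries, and Xist, which is made from a second X chromosome, had 1 to 42 counts per library. Markers of cortical excitatory neurons summed to 6273 to 7111 CPM, against 349 to 423 CPM for markers of striatal neurons. Some libraries stood apart. On the first principal component (21.3% of the variance) controls 16 and 19, the only controls of cohort 3, were at 22.6 and 17.1 and the other 11 libraries between -14.1 and 2.75. On the second (14.8%), stressed 15 was at -20.2 and the others between -6.85 and 10.02.

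No gene passed the test for a stress effect in XY- PFC. Of 19292 genes tested with edgeR's quasi-likelihood test, 0 (0%) had a Benjamini-Hochberg adjusted p below 0.05, and the lowest adjusted p was 0.0581. At an unadjusted p below 0.05 there were 1762 genes (9.13%), of which 981 were higher in stressed animals (5.09% of genes tested) and 781 lower (4.05%). These shares are the background for each list below. A count from another fit has the share of that fit beside it where one is given. List counts described as higher or lower refer to that unadjusted threshold, which no list was adjusted for. The count of genes called depended on single libraries: it was 6 without stressed 32, 4 without control 5, 4 without control 13, 3 without control 44, 1 without stressed 15 and 0 without any other library. Within cohort 3 alone (3 stressed, 2 controls) it was 286, and within cohort 1 alone (3 and 3) it was 0.

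The genes with the smallest p among those lower in stressed mice included an extracellular protease, a vesicle and cilium adaptor, a neuropeptide and the glucose transporter of brain vessels. They were chosen by that p, so their values describe the comparison and support nothing further. Htra1, a secreted serine protease (chromosome 7, 130936111 to 130985660, GRCm38), lay between 76.9 and 96.6 CPM in controls (median 89.8) and between 64.0 and 82.45 in stressed mice (median 73.9). Its ranges overlapped, with a log2 fold change of -0.26 (SE 0.05, adjusted p = 0.0581). Rilpl1, a Rab-binding adaptor that acts at the primary cilium (chromosome 5, 124493080 to 124531391), was at 63.9 to 73.9 CPM in controls (median 67.4) and at 55.1 to 63.2 in stressed mice (median 56.05). Every stressed library was below every control, with a log2 fold change of -0.25 (SE 0.05, adjusted p = 0.0581). Kctd1, a BTB-domain repressor of transcription, showed the same separation. It ranged from 84.0 to 97.45 CPM in controls (median 87.5) and from 75.9 to 81.5 in stressed mice (median 78.9), a log2 fold change of -0.16 (SE 0.03, adjusted p = 0.0606).

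Vip, the neuropeptide that marks a class of cortical interneurons, had the largest fold change of the 12 lower genes named. Controls held 52.65 to 74.9 CPM (median 57.45) and stressed mice 43.1 to 54.0 (median 48.5). The ranges met only at their edges, and the log2 fold change was -0.35 (SE 0.08, adjusted p = 0.131). Tifa, an adaptor of NF-kB signalling, was at 5.27 to 6.77 CPM in controls and at 4.72 to 5.16 in stressed mice, without overlap (log2 fold change -0.30, adjusted p = 0.185). Slc2a1, the glucose transporter of brain endothelium, ran from 69.3 to 111 CPM in controls (median 82.3) and from 65.6 to 77.8 in stressed mice (median 72.4), with a log2 fold change of -0.27. The other 6 were Sowaha (-0.22), Fbxo2 (-0.22), Itga8 (-0.33), Uqcr10 (-0.16), Fgfr3 (-0.23) and Pop5 (-0.24), given as log2 fold changes, with overlapping ranges in each. Fbxo2 is a brain F-box protein that recognises glycoproteins, Itga8 an integrin subunit, Uqcr10 a subunit of respiratory complex III, and Pop5 a subunit of RNase P. All 12 were lower in the mean of stressed libraries within cohort 1 and within cohort 3. Htra1 and Slc2a1 differed most in cohort 3 (-0.43 and -0.58 on the log2 scale, against -0.18 and -0.12 in cohort 1), whereas Rilpl1 was nearly equal in both (-0.24 and -0.28). Whether the counts kept strands apart is not known, and Htra1, Rilpl1, Kctd1, Sowaha, Itga8, Fgfr3, Tifa and Pop5 each overlap a gene on the other strand (Fgfr2 for Htra1), so their values may hold reads of both. The same holds below for Eno4, Irf7, Penk, Psmb9, Sult1a1, Dusp1, Hsd11b1, Enpp2, Syt6, Ccn2, Adarb2, Syn1, Sv2b, Bsn, Grin2b, Ntrk3, Gabrb1, Gpr34, Rps14, Rpl32, Ndufa2, Cox4i1, Esrra, Tef, B3gntl1, Eln, H2-T22, H2-T23 and 1500015O10Rik.

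The 12 genes with the smallest p among those higher in stressed mice were chosen by that p too, so their values support nothing further. Zdhhc9, an X-linked enzyme that attaches palmitate to proteins such as Ras (48171969 to 48208878), was at 47.4 to 54.6 CPM in controls (median 49.3) and at 54.7 to 59.0 in stressed mice (median 55.5). Each stressed library was above every control, by a narrow margin, and the log2 fold change was 0.18 (SE 0.04, adjusted p = 0.0581). Pclo, which encodes Piccolo, a scaffold of the presynaptic active zone (chromosome 5, 14514918 to 14863459), lay between 591 and 801 CPM in controls (median 738) and between 788 and 864 in stressed mice (median 849). Only the lowest stressed library (number 32) and the highest control (number 44) overlapped. Its log2 fold change was 0.23 (SE 0.05, adjusted p = 0.0606). Sema6d, a transmembrane semaphorin that guides axons, had a log2 fold change of 0.24 (SE 0.05, adjusted p = 0.0606), with 40.7 to 57.7 CPM in controls and 53.7 to 66.25 in stressed mice.

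Map1b, a microtubule-associated protein of axons, ranged from 1417 to 1932 CPM in controls (median 1831) and from 1859 to 2147 in stressed mice (median 2126). Its log2 fold change was 0.25 (SE 0.06, adjusted p = 0.131), and control 16 was its lowest library. Eno4, an enolase family member, was the least abundant of the 12, at 1.35 to 2.14 CPM in controls (median 1.79) and 2.14 to 2.71 in stressed mice (median 2.25). Its log2 fold change was 0.38, made up of 0.60 within cohort 1 and 0.10 within cohort 3. The remaining log2 fold changes were 0.21 for Pdk3, an X-linked kinase that inhibits pyruvate dehydrogenase, 0.24 for Clstn2, a synaptic calsyntenin, and 0.16 for Huwe1, an X-linked ubiquitin ligase. They were 0.16 for Dlc1, a GTPase-activating protein, 0.19 for Rasgrp1, a Ras activator, and 0.11 for Osbp, an oxysterol-binding protein. The ranges of these 6 overlapped, and all 12 were higher in stressed libraries within both cohorts.

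Interferon-induced genes were higher in the fitted mean of the stressed group, but not in its median library. The median list level (mean log2 CPM of the members) was 2.02 in controls and 1.985 in stressed mice. Direction differed between cohorts, and the number past the unadjusted threshold depended on stressed 32 and on the cohort 3 controls. All 20 members of the list had a log2 fold change above 0 (median 0.48, against 0.00 over all genes tested), 15 of 20 were higher at the unadjusted threshold, where the background is 5.09%, and none passed after adjustment (lowest adjusted p = 0.282). Their mean log2 CPM was 3.74 in stressed 32, 1.81 to 2.24 in the other 5 stressed libraries and 1.42 to 2.24 in controls. Without stressed 32 the count was 2 of 20 and the median 0.08, where 4.77% of all genes were higher. Without control 19, the lowest library, it was 6 (4.31% of all genes), and without both cohort 3 controls it was 1 (2.29%). Part of the list carries in its promoters the element through which interferon acts. The letters GAAANNGAAA or their reverse complement TTTCNNTTTC, here called ISRE, were searched in the 250 bases before the start sites given by RefSeq (GRCm38.p6). They were found in 7 of the 14 members with an entry (Bst2, Ifit1, Ifit3, Isg15, Rsad2, Stat2 and Trim30a) and in 3.21% of the 12946 tested genes with one. A match is a description of these letters and not a measured binding site. Ifit3 and Isg15 are read below in each library, and Ifit1 is a further member with a match. Shown are the windows of Ifit1 (chr19:34640639-34640888, plus strand), Ifit3 (chr19:34583279-34583528, plus strand) and Isg15 (chr4:156200819-156201068, minus strand). They run 5' to 3' toward the gene, with ISRE letters in capitals, and neighbouring matches can share bases. The nearest match ends 75, 112 and 56 bases before the start, in that order.
Ifit1: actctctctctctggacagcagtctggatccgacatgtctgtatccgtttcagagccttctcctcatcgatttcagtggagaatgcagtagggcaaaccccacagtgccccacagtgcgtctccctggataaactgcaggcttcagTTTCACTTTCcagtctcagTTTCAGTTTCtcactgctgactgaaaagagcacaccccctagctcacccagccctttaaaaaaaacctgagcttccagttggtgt
Ifit3: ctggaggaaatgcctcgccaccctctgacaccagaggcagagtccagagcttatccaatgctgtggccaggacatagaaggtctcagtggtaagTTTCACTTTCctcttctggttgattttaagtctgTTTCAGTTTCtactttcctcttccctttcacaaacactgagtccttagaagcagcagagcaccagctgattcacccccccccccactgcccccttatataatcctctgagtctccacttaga
Isg15: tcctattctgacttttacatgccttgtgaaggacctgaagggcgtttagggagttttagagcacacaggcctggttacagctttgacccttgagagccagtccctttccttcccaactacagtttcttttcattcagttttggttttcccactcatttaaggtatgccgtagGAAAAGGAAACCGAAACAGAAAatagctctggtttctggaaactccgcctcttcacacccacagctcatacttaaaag

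In all 6 interferon-induced genes named, stressed 32 was far above the other libraries. Ifit3, an antiviral protein with tetratricopeptide repeats, was at 4.40 to 8.01 CPM in controls (median 6.55) and at 6.78 to 27.4 in stressed mice (median 7.59), where the second highest library had 10.3. Its log2 fold change was 0.74 (SE 0.22, adjusted p = 0.282). Isg15, a ubiquitin-like modifier, was at 0.478 to 1.77 CPM in controls (median 1.35) and at 0.905 to 8.44 in stressed mice (median 1.45), where the next library had 1.78. The medians of the groups were close, and 1 library was high. The log2 fold change was 1.00 (SE 0.39, adjusted p = 0.403). Oasl2, of the oligoadenylate synthetase family, reached 35.5 CPM in stressed 32 against 3.20 to 8.01 in the other 12 libraries. Irf7, a transcription factor that amplifies interferon production, reached 14.4 CPM, with 1.36 to 4.27 elsewhere. The cytoplasmic protein gene Ifi44 reached 8.31 CPM and was at 0.729 to 1.985 elsewhere. Ifi27, the gene with the smallest p of the list, was at 23.8 CPM in stressed 32 and at 8.88 to 14.7 elsewhere (log2 fold change 0.36, SE 0.11, adjusted p = 0.282). In each of the 6, the stressed libraries other than 32 overlapped the controls.

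The cohorts disagreed in direction. In cohort 1 the difference between stressed and control means was below 0 in 19 of 20 members (median -0.22). In cohort 3, which held stressed 32 and controls 16 and 19, it was above 0 in 20 of 20 (median 0.93). Isg15 differed by -0.38 in cohort 1 and by 1.97 in cohort 3 on the log2 scale. In the nucleus accumbens of the same animals the order was another one: animal 32 had a list level of 2.36, while stressed 26 and 41 had 3.82 and 3.65, control 16 had 1.43, control 19 had 2.05 and the other controls 2.76 to 3.5. In the NAc Isg15 was at 1.965 CPM in animal 32, at 7.885 and 4.75 in stressed 26 and 41 and at 1.00 to 5.10 in controls. The high level of animal 32 was thus seen in the PFC and not in the NAc.

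**Figure D1:**
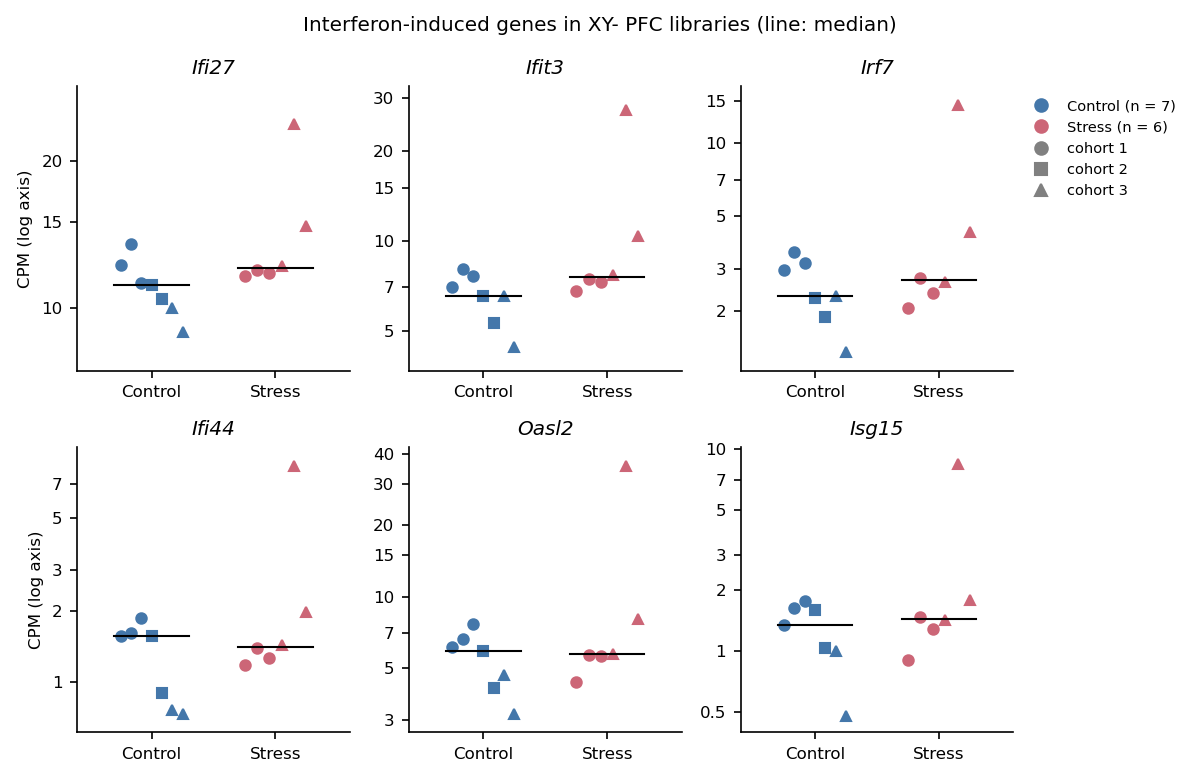
CPM (log axis) of the 6 named interferon-induced genes in each XY- PFC library, by group, with symbols for the cohort and a line at the group median. Stressed 32, a triangle, is the highest library in each panel (27.4 CPM for Ifit3, 14.4 for Irf7), and the medians of the groups lie close together.

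Genes of class I antigen presentation, which interferon also induces, followed the same library. Of 13 members 12 were above 0 (median log2 fold change 0.28), and 5 were higher at the unadjusted threshold. The direction turned between cohorts, with 12 of 13 below 0 in cohort 1 (median -0.13) and 13 of 13 above 0 in cohort 3 (median 0.63). B2m, the light chain of class I molecules, was at 62.2 to 87.2 CPM in controls (median 73.8) and at 67.6 to 161 in stressed mice (median 78.4). H2-T22, a non-classical class I gene, was at 8.88 to 10.9 and at 10.03 to 13.2 CPM, a log2 fold change of 0.21 (adjusted p = 0.346). Psmb9, an immunoproteasome subunit, and H2-T23 had log2 fold changes of 0.52 and 0.21. The list's mean log2 CPM was 3.57 in stressed 32 and 2.00 to 2.88 in the other 12 libraries. Microglia, the resident macrophages of the brain, can respond to interferon, and 13 of their 16 markers were above 0 with none past the unadjusted threshold. Their direction turned too, with 0 of 16 above 0 in cohort 1 (median -0.20) and 16 of 16 in cohort 3 (median 0.33). Their mean log2 CPM was 4.805 in stressed 32 and 4.15 to 4.61 elsewhere, and their summed level was 401 to 552 CPM in controls and 436 to 641.5 in stressed mice. Sall1, a microglial transcription factor, and Aif1 had log2 fold changes of 0.15 (SE 0.08) and 0.12 (SE 0.10). Cd68, a lysosomal marker, reached 12.7 CPM against 6.245 to 9.115 in controls (log2 fold change 0.11), and the purine-related receptor gene Gpr34 was at -0.09. The part of microglia in the interferon result was not tested, and in bulk tissue fewer cells of a type and less RNA per cell cannot be told apart.

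Genes that glucocorticoids induce were lower in stressed mice, mainly through high values in both controls of cohort 3. Of 20 members 15 were below 0 (median log2 fold change -0.23, range -1.35 to 0.04), 11 were lower at the unadjusted threshold, where the background is 4.05%, and 0 were higher. None passed after adjustment (lowest adjusted p = 0.217). The mean log2 CPM of the list was 4.50 in control 16, 4.31 in control 19, 3.97 to 4.18 in the other 5 controls and 3.82 to 4.02 in stressed mice. The other controls and the stressed mice thus overlapped. Without control 16 the count was 5 of 20, where 2.86% of all genes were lower. It was 3 of 20 without both cohort 3 controls (3.13% of all genes), with a median of -0.04, and 3 of 20 with the length index described below as a covariate (2.33%). The median difference was -0.03 within cohort 1 and -0.46 within cohort 3.

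Mt1, a metal-binding metallothionein, was at 45.4 to 61.4 CPM in controls (median 50.01) and at 38.8 to 47.5 in stressed mice (median 43.3), a log2 fold change of -0.27 (SE 0.07, adjusted p = 0.217). Angptl4, a secreted inhibitor of lipoprotein lipase, ran from 1.57 to 2.36 CPM and from 1.07 to 1.99 (log2 fold change -0.53, SE 0.14, adjusted p = 0.217). Angptl4 was higher in both cohort 2 controls than in any stressed mouse. Tsc22d3, which encodes the anti-inflammatory protein GILZ, was highest in both controls of cohort 3. It was at 60.4 and 50.1 CPM in controls 16 and 19, at 36.3 to 39.9 in the other controls and at 33.6 to 37.3 in stressed mice (log2 fold change -0.29, SE 0.09, adjusted p = 0.282). Sult1a1, a phenol sulfotransferase, was at 10.8 and 10.9 CPM in the same controls, at 3.74 to 6.72 in the others and at 3.23 to 6.97 in stressed mice. Fam107a, an actin-binding protein raised by stress hormones, behaved otherwise, with 378 to 482 CPM in controls (median 444) and 301 to 437 in stressed mice (median 366), a log2 fold change of -0.23 (SE 0.07, adjusted p = 0.3). Nfkbia, the inhibitor of NF-kB, was at 11.75 to 20.02 and at 10.75 to 13.7 CPM (log2 fold change -0.23). Fkbp5, a chaperone of the glucocorticoid receptor that is named here although it lay outside the rule for named genes, was at 27.2 and 30.1 CPM in controls 16 and 19 and at 18.5 to 22.6 in the other 11 libraries, stressed and control alike. Its log2 fold change was -0.13.

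**Figure D2:**
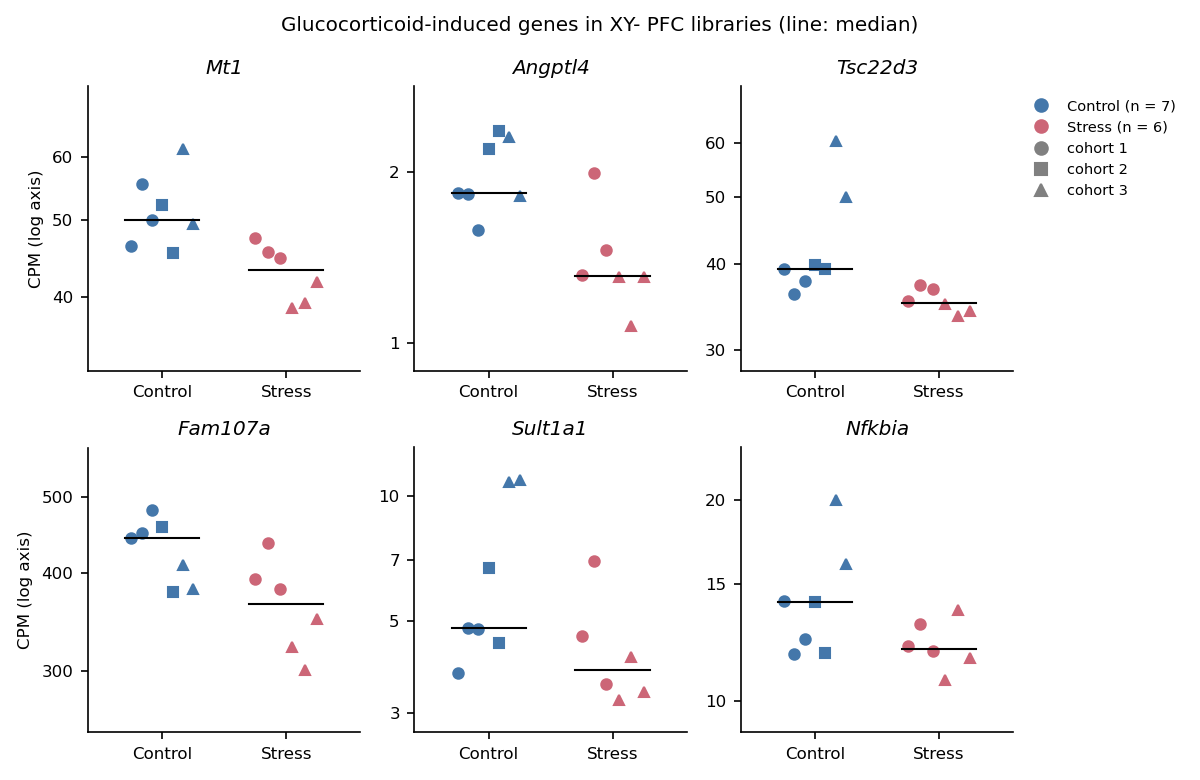
CPM (log axis) of the 6 named glucocorticoid-induced genes in each XY- PFC library, by group, with symbols for the cohort and a line at the group median. In the panels of Tsc22d3 and Sult1a1 both cohort 3 controls (triangles) lie apart from the other controls, at 60.4 and 50.1 CPM for Tsc22d3.

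The same animals were high in the nucleus accumbens. There the list's mean log2 CPM was 4.40 in control 16 and 4.46 in control 19, 3.865 to 4.19 in the other 5 controls and 3.87 to 4.185 in stressed mice, and 8 of 20 members were lower at the unadjusted threshold, against 2.29% of the genes tested in the NAc (0% called). The core letters of the glucocorticoid receptor's site, AGAACA, or TGTTCT on the other strand, was in the window of 4 of the 17 members with an entry (Fam107a, Sgk1, Sult1a1 and Tsc22d3) and of 13.4% of tested genes. The absence of these letters from the other windows says nothing about the receptor.

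Immediate early genes, which mark recent neuronal activity, were level between the groups or lower in stressed mice, and 0 of 21 reached even the unadjusted threshold, although 17 of 21 were below 0 (median -0.04). Fos was at 9.93 to 23.4 CPM in controls (median 11.8) and at 7.77 to 18.4 in stressed mice (median 10.7), a log2 fold change of -0.21 (SE 0.24). Fosb, of the same family, had -0.20 (SE 0.10), with 8.49 to 16.7 and 8.32 to 10.5 CPM. The phosphatase Dusp1 (-0.22, SE 0.18) and the antiproliferative gene Btg2 (-0.24, SE 0.23) were in the same direction, while the orphan nuclear receptors Nr4a2 (0.18, SE 0.12) and Nr4a3 (0.20, SE 0.14) were in the other. With standard errors of this size, differences of the size listed could not be told from spread between animals. Fitted within cohort 3 alone, 8 of 21 were higher and 1 lower at the unadjusted threshold, where 9.74% of all genes were higher and 8.26% lower. Fitted within cohort 1 alone, 0 were higher and 2 lower (3.96% and 4.81% of all genes). Genes of the stress axis, such as receptors and peptides of the hypothalamic pathway that cortex also expresses, were also close to 0: 1 of 15 was lower and 0 were higher. That one was Tac2, which encodes neurokinin B, at 6.73 to 11.1 CPM in controls and 6.72 to 8.68 in stressed mice (log2 fold change -0.23, SE 0.09, adjusted p = 0.403). Crh, the corticotropin-releasing hormone, had -0.17 (SE 0.13), Hsd11b1, the enzyme that regenerates active glucocorticoid, -0.16 (SE 0.13), and the PACAP receptor gene Adcyap1r1 0.04 (SE 0.04). Cort, which encodes cortistatin, was at 0.26 (SE 0.29), and Nts, which encodes neurotensin, was under 0.22 CPM in every library.

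Heat shock genes differed little. Of 24 members, 3 were lower and 1 was higher. Dnajb1, a co-chaperone of Hsp70, was at 53.75 to 61.4 CPM in controls and at 49.15 to 55.35 in stressed mice (log2 fold change -0.14, SE 0.04, adjusted p = 0.217). The inducible Hsp70 genes Hspa1a (-0.32) and Hspa1b (-0.29) were also lower and are near-identical copies, so reads can be split between them, while Hspa4l, a nucleotide exchange factor of the same system, was at 0.12. Genes of ovarian steroid signalling, of interest because these mice have ovaries, had none past the threshold among 12. The oxytocin receptor gene Oxtr had the smallest p, with 7.43 to 9.19 CPM in controls, 5.19 to 8.29 in stressed mice and a log2 fold change of -0.24 (SE 0.13). The peroxisomal dehydrogenase gene Hsd17b4 was at -0.05, the estrogen-related receptor gene Esrra at -0.07 and the estrogen-responsive gene Greb1 at -0.14. Among 19 circadian clock genes, 1 was lower: Arntl, the clock factor BMAL1, at 35.7 to 41.1 CPM in controls and 29.04 to 38.98 in stressed mice (log2 fold change -0.13, SE 0.05, adjusted p = 0.342). Per2 had 0.09 (SE 0.09), Rorb -0.09 and Tef -0.04.

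Markers of excitatory neurons held the most members past the unadjusted threshold among the neuronal lists, with 7 of 16 higher and 2 of 16 lower (median log2 fold change 0.06). The 4 with the smallest p, all higher, are markers of deep cortical layers. Of the 16 members 10 were above 0 and 6 below, down to -0.42. Calb1, from the same list, was at 137.9 to 167.7 CPM in controls and at 123.8 to 146.4 in stressed mice. Tle4, a corepressor of layer 6 neurons, was at 31.4 to 40.9 CPM in controls (median 38.9) and at 37.6 to 53.8 in stressed mice (median 45.0), a log2 fold change of 0.29 (SE 0.09, adjusted p = 0.282). Foxp2, a layer 6 transcription factor, was at 6.14 to 10.1 and at 7.48 to 16.1 CPM (log2 fold change 0.66, SE 0.21, adjusted p = 0.313). Syt6, a synaptotagmin of the same layer, was at 9.04 to 13.8 and at 11.4 to 25.4 CPM (0.63, SE 0.23), and Fezf2, which specifies neurons that project below the cortex, had 0.23 (SE 0.08). These 4 were higher in stressed means in both cohorts (Foxp2 by 0.69 and 0.58, Syt6 by 0.47 and 0.65), and the ranges of each overlapped between groups. The number higher was 4 of 16 without control 16 (2.9% of all genes), 4 with the cohort 3 controls left out (2.29%) and 1 in cohort 1 alone (3.96%). Whether the punches held more deep cortex in stressed mice was not tested.

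Markers of the subplate and claustrum, which border the deepest layer, had 1 of 10 higher. Nxph4, a neurexophilin of subplate neurons, was at 0.209 to 0.6605 CPM in controls, at 3.70 in stressed 15 and at 0.322 to 0.801 in the other stressed mice (log2 fold change 1.56, SE 0.56, adjusted p = 0.348). Ccn2 and Oprk1, further markers of these cells, had 0.43 (SE 0.24) and 0.27 (SE 0.18). Striatal markers, which could enter a cortical punch from below, had 2 of 14 higher and 4 of 14 lower, with a median of 0.02. Penk, the precursor of enkephalins, was at 23.1 to 33.1 CPM in controls (median 31.3) and at 17.4 to 28.7 in stressed mice (median 22.35), a log2 fold change of -0.42 (SE 0.11, adjusted p = 0.217). It was lower in stressed means in both cohorts (-0.36 and -0.64). Drd1, the D1 dopamine receptor gene, was in the other direction, at 6.81 to 8.49 and 7.52 to 10.8 CPM (0.39, SE 0.12, adjusted p = 0.282). Gpr6, a receptor gene best known from striatal neurons, had -0.56 (SE 0.19). The summed level of the striatal list was 366 to 423 CPM in controls and 349 to 406 in stressed mice. Interneuron markers had 1 of 16 higher and 2 of 16 lower. Besides Vip these were Adarb2, a marker of the same broad class, at -0.14 (SE 0.06), and Reln, an extracellular glycoprotein, at 0.13 (SE 0.06). Lamp5, a marker of neurogliaform cells, was at 121 to 166 and 113 to 150 CPM (-0.23, SE 0.13).

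**Figure D3:**
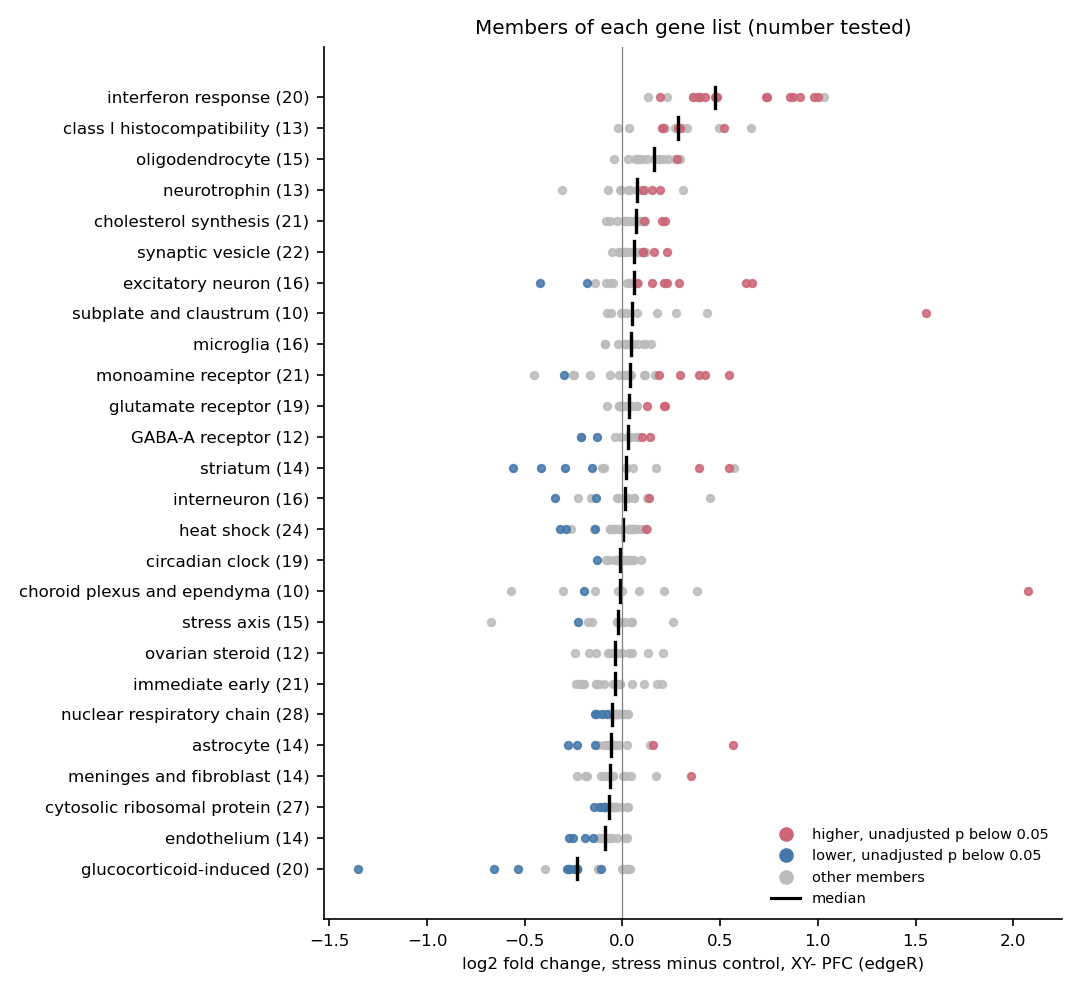
Log2 fold changes (stress minus control, XY- PFC, edgeR) of every tested member of 26 gene lists, 1 point per gene, with the median as a bar and colours for an unadjusted p below 0.05. The interferon list has the highest median (0.48) and the glucocorticoid-induced list the lowest (-0.23), and no gene shown passed after adjustment.

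Astrocyte markers were lower or higher by gene. Of 14 members 3 were lower and 2 higher, and 10 were below 0. Fgfr3, a growth factor receptor of astrocytes, was at 73.1 to 88.3 CPM in controls (median 79.5) and at 63.5 to 76.5 in stressed mice (median 69.0), a log2 fold change of -0.23 (SE 0.06, adjusted p = 0.18). Gjb6, the gap junction protein connexin 30, was at 32.9 to 44.5 and at 27.3 to 41.8 CPM (-0.28, SE 0.09), and Aldoc, the astrocytic aldolase, had -0.14 (SE 0.05). Gfap, the intermediate filament of reactive astrocytes, had the opposite sign through few libraries. It was at 162 CPM in stressed 32, at 74.1 in stressed 15, at 32.75 to 58.0 in the other stressed mice and at 31.02 to 54.9 in controls (log2 fold change 0.57, SE 0.27). The library with the highest interferon list level thus also had the highest Gfap. Without stressed 15, stressed 32, control 16 or control 19, each in turn, 0 of 14 astrocyte markers were higher. With both cohort 3 controls left out 7 of 14 astrocyte markers were lower and 0 higher, where 3.13% of all genes were lower. In cohort 1 alone 9 of 14 were lower and 0 higher (4.81% of all genes lower), while in cohort 3 alone 2 were lower and 4 higher (8.26% and 9.74%). Endothelial markers had 4 of 14 lower and 0 higher, and 12 of 14 were below 0, although 8 of 14 were above 0 in cohort 3. Slco1a4, an anion transporter of the blood-brain barrier, had -0.19 (SE 0.06), the adhesion molecule Pecam1 -0.15 (SE 0.07) and Ly6c1 -0.25 (SE 0.12), beside the -0.27 of Slc2a1. The summed level of the endothelial list was 400 to 486 CPM in controls and 369 to 438 in stressed mice.

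Oligodendrocyte markers were above 0 in 14 of 15 members (median log2 fold change 0.16), but 1 reached the unadjusted threshold. It was Myrf, the regulator of myelin genes, at 9.33 to 15.2 CPM in controls and 11.5 to 17.4 in stressed mice (0.28, SE 0.14, adjusted p = 0.541). Aspa (0.27, SE 0.17), Ermn (0.29, SE 0.21) and Hapln2 (0.23, SE 0.19), all genes of mature myelinating cells, were in the same direction. The cohorts differed, with a median of -0.10 in cohort 1 and 0.31 in cohort 3. Meningeal and fibroblast markers had 1 of 14 higher, the proteoglycan gene Lum (0.35, SE 0.17), and choroid plexus and ependymal markers had 1 of 10 higher and 1 lower. The medians of both lists were above 0 in cohort 1 (0.29 and 0.24) and below 0 in cohort 3 (-0.29 and -0.34). The higher one was Aqp1, the water channel of choroid plexus, at 7.51 CPM in stressed 15 and 0.139 to 0.575 in the other 12 libraries. Stressed 15 also had the highest meningeal level, 4.25 against 2.305 to 3.78 in mean log2 CPM, and its Mgp was 21.7 CPM where the other stressed mice had 6.55 to 9.42. The lower one was Enpp2, the lipid-processing enzyme autotaxin, at 202 to 252 CPM in controls and 175 to 214 in stressed mice (-0.20, SE 0.07). Ptgds, Slc13a3, Foxj1 and 1500015O10Rik, the other genes named from these lists, had log2 fold changes of -0.19, 0.17, 0.38 and -0.57 with standard errors of 0.28, 0.18, 0.23 and 0.42.

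Receptor genes differed by small amounts. Among 12 GABA-A receptor subunits 2 were higher and 2 lower. Gabrg1, a gamma subunit, was at 23.9 to 28.05 CPM in controls (median 26.35) and at 21.01 to 24.7 in stressed mice (median 22.03), a log2 fold change of -0.21 (SE 0.05, adjusted p = 0.217). Gabrd, the subunit of extrasynaptic receptors, had -0.13 (SE 0.06), Gabrg3 0.14 (SE 0.04) and Gabrb1 0.10 (SE 0.04). Among 19 glutamate receptor genes 3 were higher and 0 lower: Grm3 (0.21, SE 0.07) and Grm8 (0.22, SE 0.08), which encode metabotropic receptors that dampen release, and the NMDA subunit gene Grin2b (0.12, SE 0.06). Grm3 was at 51.9 CPM in the lowest control and at 81.5 to 94.0 in stressed mice, and its difference was 0.03 in cohort 1 and 0.61 in cohort 3. The AMPA subunit gene Gria1 had 0.07 (SE 0.05). Among 21 monoamine receptor genes 5 were higher and 1 lower. Adra1a, an alpha-1 adrenergic receptor gene, was at 12.6 to 23.4 and 19.9 to 22.9 CPM (0.19, SE 0.07, adjusted p = 0.396), with Htr4 at 0.42 (SE 0.19) and Htr7 at -0.30 (SE 0.14). Both encode serotonin receptors that raise cyclic AMP. Drd1, described above, led this list too.

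Neurotrophin genes had 3 of 13 higher, with a median of -0.04 in cohort 1 and 0.22 in cohort 3. Sorcs1, a sorting receptor of the Vps10 family, was at 65.7 to 78.6 CPM in controls (median 69.2) and at 72.9 to 87.6 in stressed mice (median 80.75), a log2 fold change of 0.19 (SE 0.05, adjusted p = 0.235). Gfra2, the neurturin co-receptor, had 0.15 (SE 0.07), and Ntrk2, the receptor of BDNF, 0.11 (SE 0.05). Ntrk3 had 0.12 (SE 0.06). Synaptic vesicle and active zone genes had 4 of 22 higher and 0 lower, with Pclo first. Bsn, the related scaffold Bassoon, had 0.16 (SE 0.07), the vesicle phosphoprotein gene Syn1 0.11 (SE 0.04) and the vesicle glycoprotein gene Sv2b 0.10 (SE 0.04). Syn1 was at 813 to 850 CPM in controls and at 834 to 932 in stressed mice. Cholesterol synthesis genes had 3 of 21 higher and 18 above 0. Among those higher was Srebf2, the factor that controls the pathway (0.11, SE 0.05), and Hmgcs1 was at 0.09 (SE 0.06).

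Short transcripts were lower and long transcripts higher in stressed mice, by small steps. Genes with a mean log2 CPM of at least 0 and a known length (14384) were ordered by transcript length and split into 10 classes of equal size. In the class of shortest transcripts (57 to 1338 bases) the median log2 fold change was -0.04, and 1.46% of genes were higher and 9.81% lower at the unadjusted threshold. In the class of longest transcripts (6888 to 123179 bases) it was 0.05, with 19.2% higher and 0.556% lower, and the medians of the classes between lay in order of length. Ribosomal protein genes, which are short, had 25 of 27 below 0 (median -0.07) and 5 lower. Rps14 had -0.14 (SE 0.06), Rpl32 -0.09 (SE 0.04) and Rpl37 -0.10 (SE 0.04). Nuclear genes of the respiratory chain, also short, had 24 of 28 below 0 (median -0.05) and 4 lower. Atp5j2, a subunit of ATP synthase, was at 53.9 to 63.8 CPM in controls and 47.7 to 55.2 in stressed mice (-0.14, SE 0.06), with Ndufa2 at -0.14 (SE 0.05), Cox4i1 at -0.11 (SE 0.04) and Ndufb8 at -0.08 (SE 0.04). A length index of each library (the median deviation of the longest class from its genes' means, minus that of the shortest class, log2) was -0.26 in control 16, -0.08 to 0.07 in the other controls and -0.01 to 0.07 in stressed mice. With this index in the model as a covariate, 0 ribosomal and 0 respiratory genes were lower, 1 ribosomal gene was higher and the vesicle list had 1 of 22 higher, where 2.48% of all genes were higher and 2.33% lower. The index came from these same counts, short genes can help set it, and its mean was -0.05 in controls and 0.03 in stressed mice. Lower counts under it were thus partly built in. That fit cannot tell length from stress, here or for other results given with the index. RNA quality values were not used here, and their part in the length pattern was not tested.

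**Figure D4:**
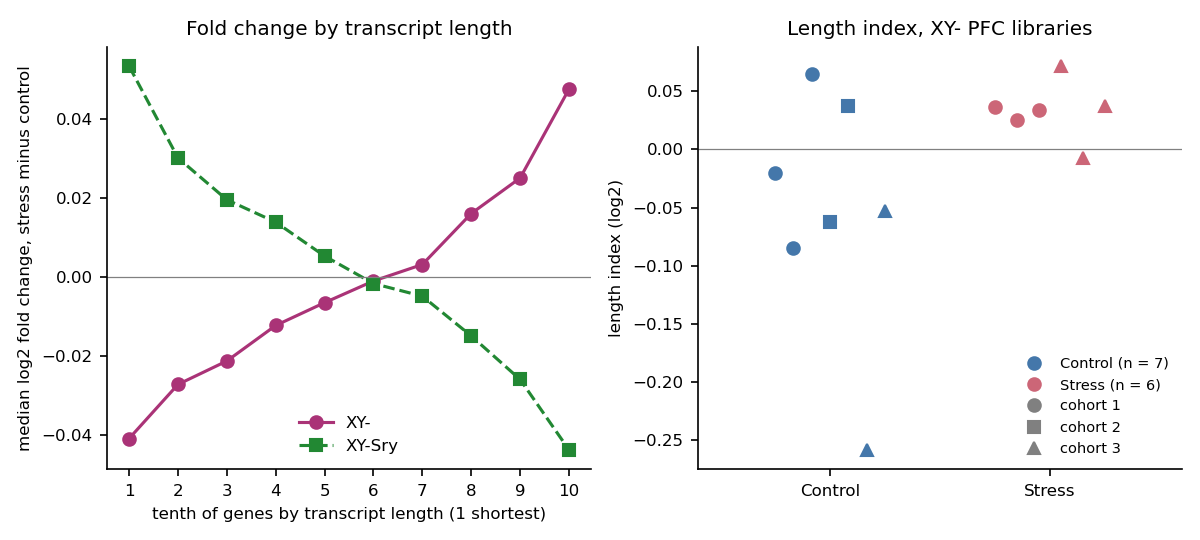
Left, median log2 fold change (stress minus control, PFC) of genes in 10 classes of transcript length, from shortest to longest, in XY- and XY-Sry mice. Right, the length index (log2) of each XY- PFC library by group and cohort. The XY- line runs from -0.04 to 0.05 and the XY-Sry line from 0.05 to -0.04, and control 16 is the lowest library at -0.26.

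XY-Sry mice have the same chromosomes with testes, and they also carry the Sry transgene. The difference between the stress effects of XY- and XY-Sry mice thus compares gonads and transgene together on one chromosome complement. Cohorts were spread unequally as well. XY-Sry controls 33, 37, 47 and 48 and stressed XY-Sry animal 23 came from cohort 2, which held no stressed XY- animal. In XY-Sry PFC (6 stressed, 6 controls) 0 genes (0%) were called, with 6.3% at the unadjusted threshold and 3.19% higher. The difference itself called 1 gene of 19292 (0.00518%). At the unadjusted threshold it held 9.96% of genes, 5.51% with a larger and 4.45% with a smaller value in XY-. The called gene was Tmem245, which encodes a membrane protein (chromosome 4, 56866923 to 56947437). In XY- mice it was at 200.3 to 240.1 CPM in controls (median 213) and at 228 to 235 in stressed mice (median 232). In XY-Sry mice it was at 219 to 251 CPM in controls (median 228) and at 196 to 215 in stressed mice (median 208), without overlap. The log2 fold changes were 0.11 (SE 0.04) and -0.18 (SE 0.04), and their difference was 0.29 (SE 0.05, adjusted p = 0.0134). The call was lost with the length index as a covariate (difference 0.19, adjusted p = 0.9998), without XY-Sry control 46 (0.27, adjusted p = 0.102), without XY-Sry control 33 (adjusted p = 0.0506) and without XY-Sry stressed 24 (adjusted p = 0.0514).

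The next genes were Uqcr10 and Kcnq3, a potassium channel of the M-current. Uqcr10 was at 34.95 to 42.85 CPM in XY- controls and 32.95 to 36.2 in stressed XY- mice, and at 34.6 to 39.1 and 36.1 to 40.6 in XY-Sry mice, a difference of -0.26 (SE 0.05, adjusted p = 0.0538). Kcnq3 was at 308 to 355 and 335 to 369 CPM in XY- mice and at 355 to 408 and 290 to 358 in XY-Sry mice, a difference of 0.28 (SE 0.06, adjusted p = 0.0538). Pclo, the presynaptic scaffold described above, had a difference of 0.32 (SE 0.07, adjusted p = 0.0538), from 0.23 in XY- and -0.10 in XY-Sry. None of these 3 passed the test. The 2 lines of the length plot ran in opposite directions, and the length index averaged -0.05 (SD 0.11) in XY- controls, 0.03 (SD 0.03) in stressed XY-, 0.05 (SD 0.05) in XY-Sry controls and -0.06 (SD 0.05) in stressed XY-Sry mice. Of the ribosomal genes 14 of 27 and of the respiratory genes 13 of 28 had a smaller value in XY- at the unadjusted threshold, and none was called. For interferon-induced genes 13 of 20 had a larger value in XY- (median 0.74), with stressed 32 among the libraries. In XY-Sry mice themselves 18 of 20 were below 0 (median -0.26), with 0 lower at the unadjusted threshold. For glucocorticoid-induced genes 9 of 20 had a smaller value in XY- (median -0.27). Oligodendrocyte markers, above 0 in 14 of 15 in XY-, were above 0 in 15 of 15 in XY-Sry (median 0.35), where 6 were higher at the unadjusted threshold, and 0 of 15 differed between the genotypes at that threshold.

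**Figure D5:**
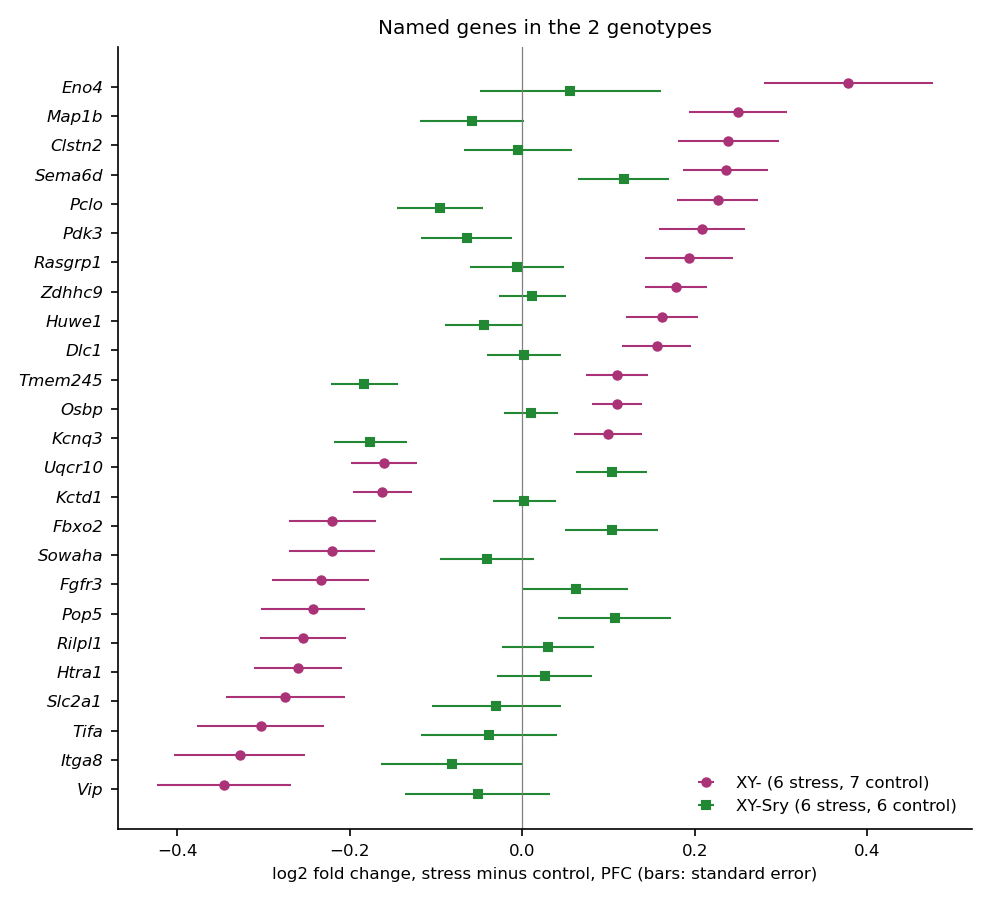
Log2 fold changes (stress minus control, PFC) with standard errors of the genes named for XY- mice and of Tmem245 and Kcnq3, in XY- and in XY-Sry mice. Rilpl1 (-0.25 and 0.03) and Zdhhc9 (0.18 and 0.01) are near 0 in XY-Sry, and Tmem245, the 1 gene whose difference was called, is at 0.11 and -0.18.

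XX mice have ovaries like XY- mice but a second X chromosome in place of Y-. Among stressed XX animals, 9, 18 and 25 came from cohort 3, while the XX controls came from cohorts 1 and 2. The stress effects of XY- and XX mice differed in 0 called genes (0%), with 5.22% at the unadjusted threshold, and stress alone called 0% in XX PFC (6 stressed, 5 controls). The genes with the smallest p were Marveld1, a membrane protein gene, B3gntl1, a glycosyltransferase-like gene, and Elovl6, which elongates fatty acids. Marveld1 was at 7.79 to 9.12 CPM in XY- controls and 6.40 to 9.41 in stressed XY- mice, and at 6.25 to 7.77 and 6.715 to 8.37 in XX mice, a difference of -0.36 (SE 0.10, adjusted p = 0.926). B3gntl1 was higher in every stressed XX library (6.17 to 6.54 CPM) than in XX controls (4.71 to 5.645), and in XY- mice it was at 5.69 to 7.77 and 5.34 to 5.93 (difference -0.40, SE 0.10, adjusted p = 0.926). Elovl6 differed by 0.30 (SE 0.08, adjusted p = 0.926), from 0.12 in XY- and -0.18 in XX. Of the interferon-induced genes 5 of 20 had a larger value in XY- than in XX at the unadjusted threshold.

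The nucleus accumbens of the same 13 animals gave no called gene either, and no gene differed in its stress effect between the regions (0% called, 2.56% at the unadjusted threshold). The smallest p belonged to Lzts1, Actn2 and Eln. Lzts1, a postsynaptic density protein gene, was at 105 to 141 CPM in control and 118 to 144 in stressed PFC, and at 93.8 to 114 and 83.6 to 104 in NAc, a difference of 0.34 (SE 0.07, adjusted p = 1). Actn2, an actin-binding protein of spines, was at 13.7 to 17.8 and 15.7 to 17.4 CPM in PFC and at 43.1 to 60.6 and 28.55 to 48.75 in NAc (difference 0.55, SE 0.11, adjusted p = 1). Eln, which encodes elastin, differed by -0.57 (SE 0.13, adjusted p = 1), with 2.49 to 5.37 CPM in control and 4.33 to 7.31 in stressed NAc. Of the PFC genes named first, Htra1 had a log2 fold change of -0.31 in NAc and -0.26 in PFC, Rilpl1 -0.13 and -0.25, Slc2a1 -0.24 and -0.27, Sema6d 0.22 and 0.24, and Zdhhc9 -0.01 and 0.18, with adjusted p = 1 for each difference between regions. Of the striatal markers, all 14 tested were below 0 in NAc (median -0.30), where these neurons are abundant, and 7 were lower at the unadjusted threshold. In PFC 6 of the same 14 were below 0, and 4 of 14 had a larger value in PFC than in NAc at that threshold.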

How the data were processed

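Polyadenylated RNA from tissue punches was sequenced per animal and region. The authors deposited raw counts per gene, 1 table per region, with 1 column per library. The submitters' processing notes name FastQC 0.11.9, Trimmomatic 0.38, HISAT2 2.2.0, edgeR, DESeq2 and the build GRCm38/mm10. The counting tool, its strand setting, the annotation and the unit counted (reads or fragments) appear in none of the labels or headers used here. The labels state about 45 M reads per sample, below the 76.1 to 95.3 M counts found in the 13 libraries.

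Counts were tested with edgeR 4.0.16 (R 4.3.3): TMM scaling, filterByExpr, and quasi-likelihood fits of 8 group means with cohort as a covariate over all 48 PFC libraries, which share 1 estimate of spread. P-values were adjusted by Benjamini-Hochberg across every gene tested (threshold 0.05). Differences from XY-Sry and XX were contrasts in that fit. The difference between regions was fitted over 26 libraries of 13 animals with the animal as a replicate block, since the animal number in the titles pairs PFC and NAc. The fits were tested on simulated counts. The lowest chi-square per degree of freedom over 36 pairs of libraries within a group was 8.387, so none of these pairs held a copy. Pairs across groups were not part of this check. The cohort differences quoted are differences of mean log2 CPM, with no test. Of 19918 genes, 5332 overlap a gene on the other strand.

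The genes named were the 12 with the smallest p in each direction at a mean log2 CPM of at least 0, up to 6 members per list by smallest p, and 3 per difference, apart from some genes that are not reported here. The libraries, lists and alternatives were chosen with earlier results of these data known. Alternatives changed the scaling, the filter, the tool (DESeq2 1.42.0, limma 3.58.1), the covariates (sva 3.50.0), the samples fitted and each library. The choices made after these data were seen were leaving out the cohort 3 controls, the length index, the list counts under each setting and leaving out XY-Sry libraries.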

Additional observations from a re-analysis of the deposited data

Results flagged for a closer look

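Of 324 group tests on named genes, list levels, length index, depth and mitochondrial share, 38 had a library beyond Dixon's 95% limit. Chance alone gives about 5%, or 1 in 20, for independent tests. These tests share libraries and genes, so 38 cannot be set against that share. The 38 fell on few libraries: 13 on stressed 32, 12 on stressed 15, 8 on control 16 and 1 each on stressed 26 and controls 5, 13, 19 and 36.

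Stressed 32 was the highest stressed library for the interferon-induced genes Oasl2 (35.5 CPM), Ifit3 (27.4), Ifi27 (23.8), Irf7 (14.4), Isg15 (8.44) and Ifi44 (8.31), and its mean log2 CPM over that list was 3.74. It was the lowest for the ubiquitin ligase Huwe1 (551.4 CPM), the BDNF receptor Ntrk2 (759), Uqcr10 (32.95), Gabrd (31.5) and Pdk3 (25.55), and for the glutamate receptor list (7.36 in mean log2 CPM). Whether the high interferon genes came with infection, handling or the stress itself was not tested.

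Stressed 15 was the highest stressed library for the extracellular glycoprotein Reln (143.4 CPM), the meningeal genes Slc13a3 (23.7) and Mgp (21.7), the myelin-related enzyme Aspa (8.61), the serotonin receptor Htr7 (7.68), the choroid plexus channel Aqp1 (7.51), the estrogen-responsive gene Greb1 (4.15) and the subplate gene Nxph4 (3.70). Its mean log2 CPM was also the highest for the choroid plexus and ependymal list (1.37) and the interneuron list (6.14). It was the lowest for Nr4a3 (17.5 CPM) and Htr4 (0.576).

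Control 16 was the lowest control for Map1b (1417 CPM), Gabrb1 (251), Adcyap1r1 (180.2), Hspa4l (117.8), Lzts1 (105.2), Tle4 (31.4), Pdk3 (21.4) and Adra1a (12.6). Among the others, control 19 was highest for Enpp2 (251.8 CPM), control 36 was highest for Dusp1 (42.4), control 13 was lowest for Eno4 (1.35) and control 5 was lowest for Cort (1.101). Stressed 26 was the lowest stressed library for Gpr34 (8.36 CPM).

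The stress effects of XY- and XY-Sry mice differed for Tmem245, by 0.29 on the log2 scale in a test of the difference itself (0.11 and -0.18). As described above, this call was lost with the length index as a covariate and without some single XY-Sry libraries.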

How the results depend on the processing

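The stress effect in XY- PFC called 0 genes with edgeR (1762 at the unadjusted threshold) and 0 with limma-voom, but 28 with DESeq2, 3 with DESeq2's size factors in edgeR, 6 with a filter of 1 CPM in 6 libraries, 3 with 2 surrogate variables, 1 in the 13 libraries alone and 286 in cohort 3 alone. Leaving out 1 library gave 0 to 6. The difference from XY-Sry called 1 gene, and 10 with that filter, 4 without the cohort term, 69 with DESeq2, 10 with limma-voom, 2 with 2 surrogate variables and 0 with the length index. Leaving out 1 library gave 0 to 18: 18 without control 44, 8 without control 13 and 5 without stressed 32, and among XY-Sry libraries 11 without stressed 49, 3 without stressed 30 and without controls 47 and 48, 2 without controls 37 and 38, and 0 without stressed 24 and without controls 33 and 46. The difference from XX called 0 genes under each alternative run. The paired difference between regions called 0 genes with the replicate block, without it and with limma-voom.

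The 15 interferon-induced genes at the unadjusted threshold became 0 in cohort 1 alone (3.96% of all genes higher), 2 in cohort 3 alone (9.74%) and 1 without the cohort 3 controls (2.29%). They became 7 with limma-voom, 0 in the 13 libraries alone, 3 there without the cohort term and 9 without cohort 2. Leaving out 1 library gave 2 to 18, with 2 without stressed 32 (4.77%) and 6 without control 19 (4.31%). The 11 glucocorticoid-induced genes became 2 in cohort 1 alone (4.81% of all genes lower), 3 without the cohort 3 controls (3.13%) and 3 with the length index (2.33%). They became 7 in the 13 libraries alone and 5 there without the cohort term. Leaving out 1 library gave 5 to 12, with 5 without control 16 (2.86%). Counts with no share beside them have no background here and only describe the fits. For 27 single-gene values, 661 alternative values stayed on the same side of the threshold in the same direction, 82 newly passed it, 4 no longer did (all of Tmem245) and 0 reversed. None of the 13 XY- PFC libraries had a depth under 76.1 M, and the depth of the other libraries is not given here. Counting error was not separated from the spread between animals, and the cause of each shift was not tested.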

Other observations

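The mitochondrial gene mt-Nd3, a subunit of respiratory complex I, fell into separate levels across the 96 libraries: 0.0272 to 0.691 CPM in 68 libraries and 6.09 to 17.3 in 28. This gene was singled out after its values were seen. The same 14 of 48 animals were above 2 CPM in both regions. Among XY- mice these were stressed 15, 26 and 41 (13.4, 8.595 and 10.8 CPM in PFC, and 10.97, 6.51 and 10.8 in NAc) and 0 of 7 controls. Its log2 fold change in XY- PFC was 4.51 (SE 1.63, edgeR adjusted p = 0.35). Above that level were also 1 of 6 control and 2 of 6 stressed XY-Sry mice, 1 of 5 control and 4 of 6 stressed XX mice, and 0 of 6 control and 3 of 6 stressed XXSry mice. Whether this follows from inheritance, alignment or counting was not tested.

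Blood cell markers, of which 0 of 10 passed the unadjusted threshold, ranged from 143 to 255 summed CPM in controls and from 57.05 to 350 in stressed mice. Mural cell markers had 0 of 12 past that threshold, and markers of oligodendrocyte precursors had 2 of 14 higher.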
